A study of Homo sapiens with 16 samples.

Results

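The mitochondrial ribosomal proteins were taken as every array probe whose gene symbol starts with MRPL or MRPS followed by a digit. The rule read the symbol alone and no measured value, and it gave 89 probes for 70 of the 15240 gene symbols on the array. Of these, 54 probes stood for 45 genes named MRPL, after the large subunit, and 35 probes for 25 genes named MRPS, after the small subunit. HepG2, a human liver tumour cell line, was grown without serum and with 100 µM elaidic acid, 100 µM oleic acid, 100 µM stearic acid or, as control, no fatty acid. The 3 acids have the same chain length, with a trans double bond in elaidic acid, a cis double bond in oleic acid and none in stearic acid. RNA was taken after 7 days from 4 biological replicates of each group, and each extract was measured in 2 technical replicates that the deposited table gives as 1 value. All 16 samples come from this 1 line, so the replicates show the spread between its cultures.

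Mitochondria carry their own ribosome, which translates the few messages of the mitochondrial genome, all of them for subunits of the respiratory chain and of ATP synthase. Its ribosomal RNA is made in the organelle, while all of its proteins are encoded in the nucleus, made in the cytosol and imported. Some of these proteins have relatives in bacterial ribosomes and others exist in mitochondria only. Hepatocytes are rich in mitochondria, and their oxidation of fatty acids feeds the respiratory chain that this ribosome helps to build.

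By their array numbers, as labelled, the samples form 2 ranges that cut across the fatty acids. Range B holds elaidic acid replicates 1 and 3 and all stearic acid samples, and range A holds elaidic acid replicates 2 and 4 and all oleic acid and control samples. The labels say nothing more of these numbers. Samples of different ranges correlated at 0.789 to 0.943 over the 22939 probes tested, against 0.885 to 0.963 for samples of different groups within 1 range. Oleic acid replicate 4 and control replicate 1 had the lowest median intensities, at 20.7 and 19.95, and the other 14 samples lay between 25.4 and 76.1. A hepatocyte marker list had 12 of 12 probes tested, at mean log2 levels of 12.27 to 12.95 with elaidic acid, 10.94 to 11.98 with oleic acid, 12.60 to 12.69 with stearic acid and 11.05 to 12.15 in control. Markers of blood, endothelium, stroma and neural cells had 10 of 13 probes tested, at 5.49 to 6.09, 5.91 to 6.73, 5.78 to 5.93 and 5.91 to 6.26 in the same order of groups. The neural markers NEFL and GFAP and the stromal COL3A1 had median intensities of 3.45, 2.81 and 3.43. CD14, listed with the blood markers, had 1545, and the source of this signal in the 1 cell line was not tested. The other markers of this list are not given singly. The part of either marker list in the results below was not tested.

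A probe was tested where all 16 intensities were above 0, which held for 81 member probes of 66 genes, 50 of them MRPL and 31 MRPS. The 8 member probes left out had 1 to 4 values at or below 0. They were the only probes of MRPL45 (1 value), MRPS30 (1), MRPL42 (3) and MRPS16 (2), and 1 of several probes of MRPL39 (1), MRPL46 (1), MRPS28 (2) and MRPS14 (4). Levels are log2 intensities after quantile normalisation. The median member probe had a mean log2 level of 8.29, against 6.59 for all probes tested, and 27.1% of all probes were brighter than that. The highest member intensity was 29406, and whether any member came near saturation was not tested. MRPS18B had no probe and was not analysed here.

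Mean member levels parted by array-number range, a split that also sets all stearic acid samples apart from all oleic acid and control samples. Averaged over the 81 probes, the 4 elaidic acid samples had mean log2 levels of 8.50 and 8.42 in range B and of 7.99 and 7.80 in range A. The oleic acid samples had 7.89, 7.78, 7.78 and 7.41, the stearic acid samples 8.79, 8.66, 8.74 and 8.74, and the control samples 7.46, 7.88, 7.75 and 7.93. Each of the 6 samples of range B lay above each of the 10 samples of range A, with means of 8.64 ± 0.15 and 7.77 ± 0.19 (SD). Within range B, every stearic acid sample lay above both elaidic acid samples. The lowest values of all belonged to oleic acid replicate 4 and control replicate 1, the samples of lowest median intensity. Precision here is limited by how many arrays there are, and in bulk RNA fewer cells of a kind and less RNA per cell cannot be told apart.

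Both subunits showed this order. Subunits are counted by symbol here, so MRPS18A and MRPS36 stand with the small subunit although their proteins belong elsewhere, as given below. The large subunit averaged log2 levels of 8.28 ± 0.29 with elaidic acid, 7.83 ± 0.22 with oleic acid, 8.81 ± 0.07 with stearic acid and 7.88 ± 0.15 in control (SD, n = 4 each). The small subunit averaged 8.01 ± 0.43, 7.53 ± 0.22, 8.61 ± 0.06 and 7.56 ± 0.33 in the same order. Large minus small, a difference within each sample, was 0.27 ± 0.16 log2 units with elaidic acid, 0.30 ± 0.12 with oleic acid, 0.20 ± 0.08 with stearic acid and 0.31 ± 0.20 in control. The groups overlapped in this difference, so the 2 subunits were not seen to part from each other in any group.

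**Figure D1:**
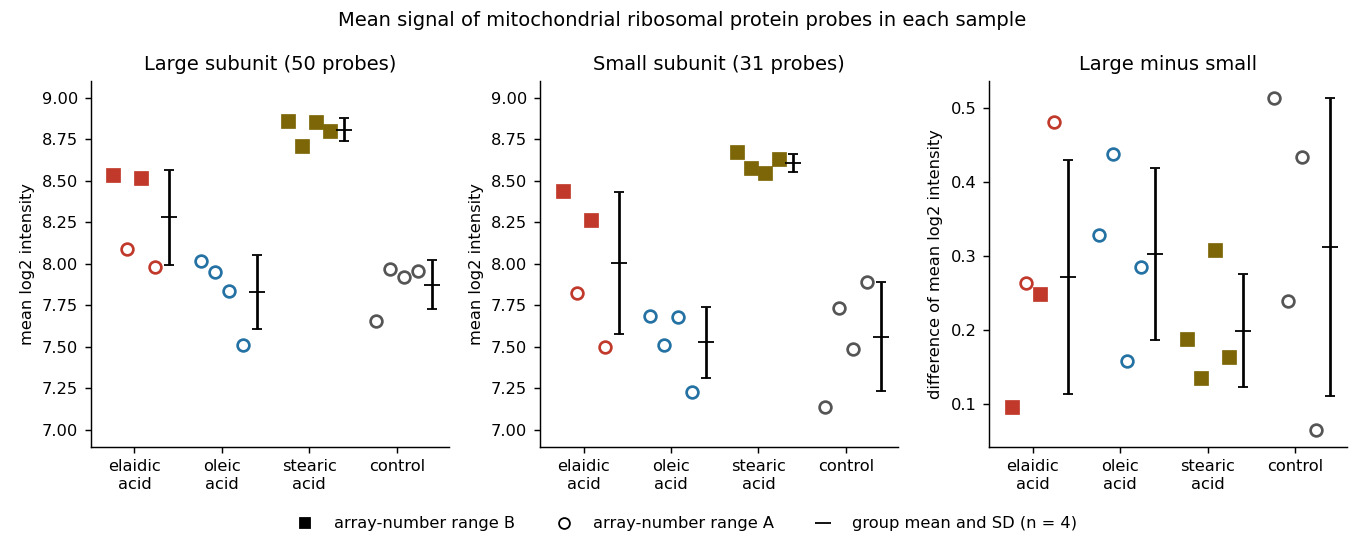
Mean log2 intensity of the 50 large-subunit probes (left) and the 31 small-subunit probes (middle) and their difference (right) in each of the 16 samples, with filled squares for range B, open circles for range A and bars for the group mean and SD (n = 4). Subunits are counted by gene symbol. All samples of range B lie above all of range A in both subunits, while the difference between subunits overlaps between groups.

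Elaidic acid is the 1 group with samples in both ranges, and its samples show how far member probes differed between ranges under the same fatty acid. Its replicates 1 and 3, of range B, had median intensities of 53.9 and 57.8. Its replicates 2 and 4, of range A, had 25.5 and 32.6. Range and overall signal therefore cannot be told apart within this acid. In a limma model of group plus range, range B minus range A had a median log2 difference of 0.49 over the members, against -0.13 over all probes tested, and 59 of 81 members were higher in range B. After Benjamini-Hochberg adjustment 4 members were higher and 1 was lower in range B, where 2.36% of all probes were higher and 1.7% lower (4.05% in all). At an unadjusted p under 0.05 there were 26, where 28% of all probes passed. The median was 0.41 for the large subunit and 0.61 for the small.

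MRPL3, a large-subunit protein with a bacterial relative, had log2 levels of 8.79 and 8.11 in elaidic acid replicates 1 and 3, against 5.66 and 4.37 in replicates 2 and 4 (log2 difference 3.44 ± 0.63 (SE), limma adjusted p = 0.016). MRPL1, of the stalk at which spent tRNA leaves, had 10.57 and 10.56 in range B, against 8.18 and 8.37 in range A (log2 difference 2.29 ± 0.43, limma adjusted p = 0.017). MRPS27, a small-subunit protein found in mitochondria only, had 9.27 and 8.25 against 6.10 and 5.80 (log2 difference 2.81 ± 0.54, limma adjusted p = 0.018). In all 3 genes the replicates of the same acid parted by range, and the range B pair lay among the stearic acid samples or above them. MRPL15, another with a bacterial relative, differed by 1.10 ± 0.26 log2 units (limma adjusted p = 0.038). MRPL39, a large-subunit protein related to threonyl-tRNA synthetase, went the other way, with 6.76 and 6.62 in range B and 8.83 and 8.37 in range A (log2 difference -1.91 ± 0.35, limma adjusted p = 0.015).

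Stearic acid and control share no range. Each difference between them, and between oleic acid and stearic acid, therefore holds the range difference as well, and group and range cannot be told apart there without the elaidic acid samples. Across the 81 member probes, the log2 difference between ranges within elaidic acid and the log2 difference between stearic acid and control had the same sign for 68 probes (Pearson r = 0.76). Over all 22939 probes the signs matched for 79.5% (r = 0.72). These are descriptions across probes that share samples and are not independent. Each contrast below is given first without and then with range as a block. With the block, elaidic acid is set against oleic acid or control within range A (2 samples against 4) and against stearic acid within range B (2 against 4), while stearic acid is set against oleic acid or control through the elaidic acid samples.

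**Figure D2:**
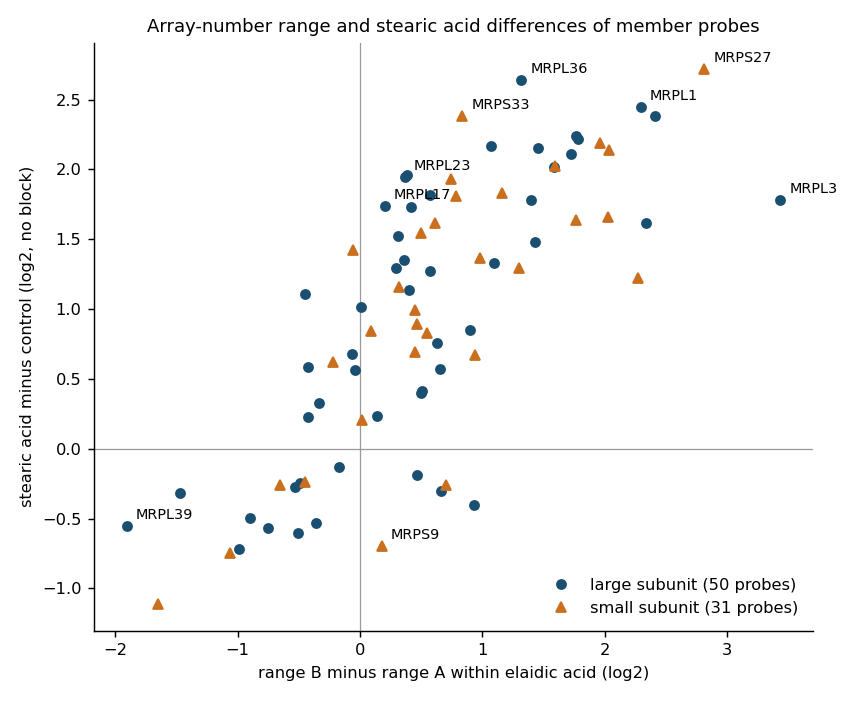
For each of the 81 tested member probes, the log2 difference between ranges B and A within elaidic acid (x axis) against the log2 difference between stearic acid and control without the block (y axis), with circles for the large and triangles for the small subunit. Of the 81 probes, 68 have the same sign on both axes, with MRPL3, MRPL1 and MRPS27 far to the right, while MRPL23 and MRPL17 lie high on the y axis and near 0 on the x axis.

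Between stearic acid and control, 42 member probes rose and 1 fell without the block. The median member log2 difference was 1.14, against -0.18 over all probes tested, and 62 of 81 members were higher. The 43 calls were 53.1% of the members, where 29.8% of all probes were called, 15% as higher and 14.8% as lower. In the large subunit 25 of 50 probes rose and none fell, with 32 past an unadjusted p of 0.05, where 46.1% of all probes passed, and in the small subunit 17 of 31 rose and 1 fell. The medians were 1.06 and 1.22. With range as a block limma called 0 members and 0% of all probes, and the member median was 0.40, against 0.01 over all probes. At an unadjusted p under 0.05 the blocked fit held 20 members (24.7%), 19 of them higher, where 7.45% of all probes passed and 4.09% passed as higher.

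MRPL23, which lies near the exit of the tunnel for new chains, had log2 levels of 9.98, 9.96, 10.24 and 10.04 with stearic acid, against 7.68, 8.39, 7.94 and 8.44 in control (probe PH_hs_0027046). It rose by 1.94 ± 0.24 log2 units (SE, limma adjusted p = 6.5e-04), and by 1.58 ± 0.40 with the block (limma adjusted p = 0.33). Every stearic acid sample lay above every control sample by more than 1 log2 unit, and above all 4 elaidic acid samples too. MRPL17, a large-subunit protein with a bacterial relative, had 9.16, 8.83, 9.30 and 9.03 with stearic acid, against 7.16, 7.42, 7.58 and 7.21 in control. Its log2 difference was 1.74 ± 0.22 (limma adjusted p = 6.5e-04), or 1.53 ± 0.37 with the block. MRPL12, of the stalk that recruits translation factors and also known to bind the mitochondrial RNA polymerase, has 2 probes. PH_hs_0035524 had 9.57, 9.45, 9.65 and 9.49 with stearic acid, against 7.28, 7.85, 8.34 and 7.76 in control. The probes differed by 1.73 ± 0.23 and 1.82 ± 0.27 log2 units (limma adjusted p = 9.4e-04 and 9.9e-04), or by 1.31 and 1.24 with the block.

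MRPS34, a small-subunit protein found in mitochondria only, had 10.28, 10.17, 10.49 and 10.06 with stearic acid, against 8.81, 8.98, 8.76 and 8.74 in control (probe PH_hs_0035620). Its log2 difference was 1.43 ± 0.20 (limma adjusted p = 9.7e-04) and 1.49 ± 0.35 with the block. The 4 elaidic acid samples lay between 9.15 and 9.28 in both ranges, so this probe did not part by range within that acid. MRPL51, a large-subunit protein of mitochondria only, differed by 1.35 ± 0.19 log2 units, or 0.99 ± 0.29 with the block. MRPL44, which has a fold related to ribonuclease III, differed by 1.96 ± 0.30, or 1.57 ± 0.51 with the block (probe PH_hs_0035690). MRPL36, one of the smallest proteins of the large subunit, had the largest log2 difference of these 8 probes, 2.64 ± 0.39, which the block took to 1.32 ± 0.53. The adjusted p of these 3 was 9.7e-04 to 0.0011 in limma, and none of the 8 passed with the block.

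MRPS9, a small-subunit protein with a bacterial relative, fell. It had 8.19, 8.10, 8.12 and 8.17 with stearic acid, against 8.65, 8.88, 8.62 and 9.20 in control. The log2 difference was -0.70 ± 0.25 (limma adjusted p = 0.048), and -0.87 with the block, which did not pass. The call was lost whenever any 1 of the 8 samples was left out, with log2 differences of -0.77 to -0.58.

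**Figure D3:**
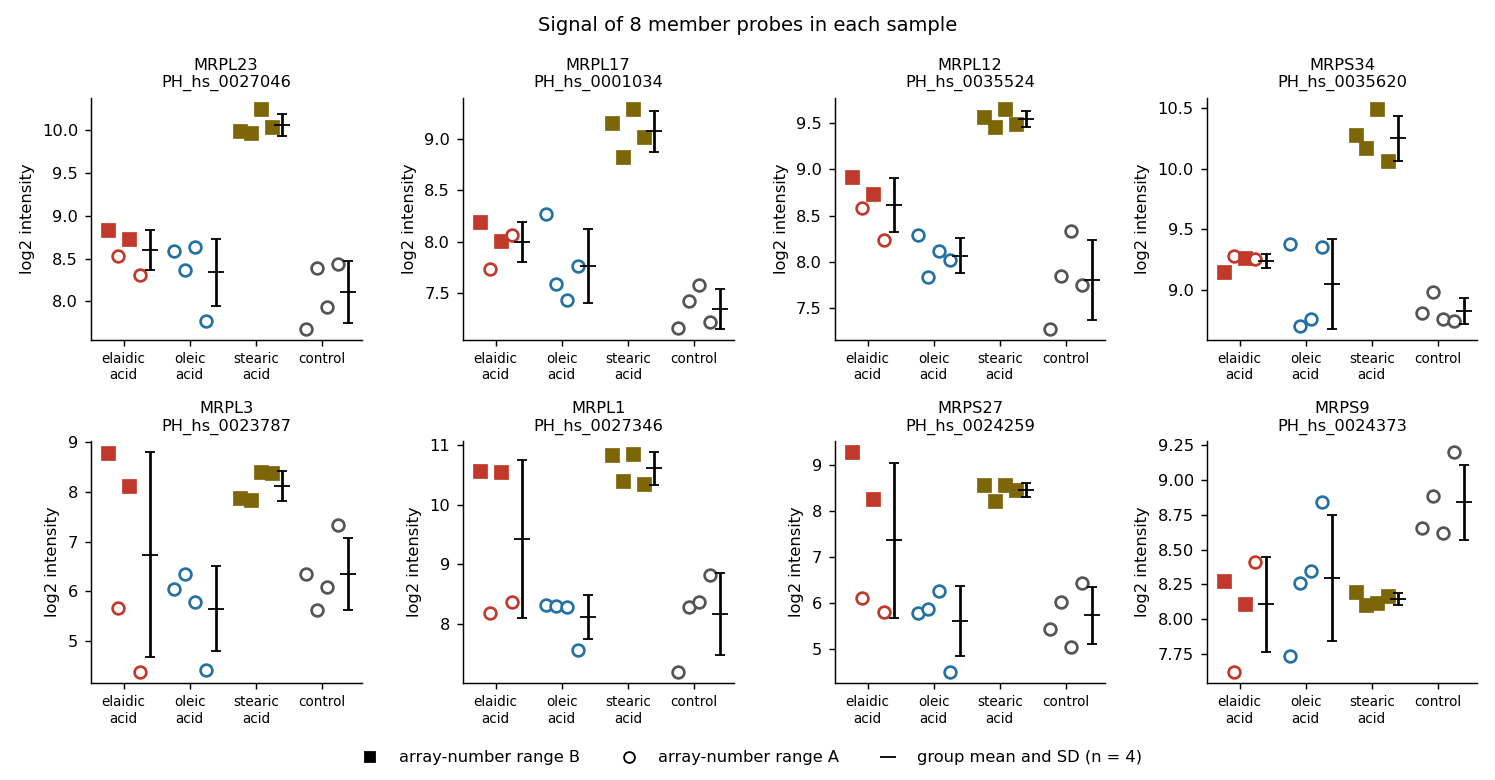
Log2 intensity of 8 member probes in each sample, grouped by fatty acid, with filled squares for range B, open circles for range A and bars for the group mean and SD (n = 4). In MRPL3, MRPL1 and MRPS27 the 2 filled elaidic acid points lie with the stearic acid samples, while in MRPL23, MRPL17 and MRPS34 all 4 elaidic acid points lie below them.

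Promoters are shown for 3 of these genes, MRPL17, MRPL51 and MRPS34. Each had a probe that passed against both control and elaidic acid without the block, and in neither with it. MRPL23 likewise passed in both without the block only, but had no promoter entry. The sequences are from RefSeq on GRCh38.p14 and run from 250 bases before to 50 bases after the annotated start, and all 3 genes lie on the minus strand. All 70 member genes matched RefSeq, on 21 chromosomes, and 62 had a promoter entry. Capitals mark the letters searched for, on both strands: GCGCATGCG for nuclear respiratory factor NRF1, CCGGAAGT for the ETS family that holds GABP, AAGATGGC for YY1, and TATAAA. The first 3 of these factors are known to act on nuclear genes of mitochondrial proteins.
MRPL17, chr11:6683291-6683590: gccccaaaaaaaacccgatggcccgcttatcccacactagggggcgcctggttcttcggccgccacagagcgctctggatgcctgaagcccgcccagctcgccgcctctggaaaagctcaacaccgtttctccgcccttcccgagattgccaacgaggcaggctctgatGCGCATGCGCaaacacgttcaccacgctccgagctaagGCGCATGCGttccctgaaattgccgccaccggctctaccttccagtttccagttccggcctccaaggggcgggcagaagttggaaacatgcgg
MRPL51, chr12:6493213-6493512: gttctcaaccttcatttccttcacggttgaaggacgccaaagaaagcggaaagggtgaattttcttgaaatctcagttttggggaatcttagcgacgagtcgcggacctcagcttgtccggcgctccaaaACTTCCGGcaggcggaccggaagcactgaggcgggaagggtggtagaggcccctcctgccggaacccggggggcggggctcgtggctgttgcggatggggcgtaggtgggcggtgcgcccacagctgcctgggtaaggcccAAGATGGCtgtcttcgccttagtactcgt
MRPS34, chr16:1773085-1773384: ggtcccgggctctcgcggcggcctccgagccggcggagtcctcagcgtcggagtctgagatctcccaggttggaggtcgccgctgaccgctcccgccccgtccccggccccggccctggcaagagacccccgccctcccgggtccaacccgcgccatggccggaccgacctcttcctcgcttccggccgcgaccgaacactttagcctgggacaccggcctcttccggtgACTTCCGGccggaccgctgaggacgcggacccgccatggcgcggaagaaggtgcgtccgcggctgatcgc
MRPL17 held the NRF1 letters from position -81, with an overlapping match on the other strand from -80, and again from -43. MRPL51 held the ETS letters from -120 on the other strand and the YY1 letters from 22 bases into the transcript. MRPS34 held the ETS letters from -20 on the other strand. None of these letters stood in the windows of MRPL12, MRPL44 or MRPS33, and that of MRPL36 held the YY1 letters.

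Of the 62 member promoters, 18 (29.0%) held the YY1 letters, against 3.91% of 15843 protein-coding promoters. The ETS letters stood in 10 (16.1%, against 6.19%), the NRF1 letters in 3 (4.84%, against 2.76%) and TATAAA in 3 (4.84%, against 9.63%). The median GC content was 60.2% in the members and 62.7% in all. A protein-coding gene on the other strand started within 1000 bases upstream for 15 members (24.2%, against 10.3%). A match is a run of letters and not a measured binding site.

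Between elaidic acid and stearic acid no member rose and 4 fell without the block, where 0.397% of all probes were called and 0.31% were called as lower. The median member log2 difference was -0.66, against 0.07 over all probes, and 63 of 81 members were lower (large subunit -0.61, small subunit -0.66). Within range B the median was -0.19, against 0.02 over all probes. limma then called 0 members and 0.00436% of all probes, and 14 members (17.3%) passed an unadjusted p of 0.05, all of them lower, where 5.82% of all probes passed and 3.58% passed as lower.

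The 4 that fell were MRPL23, MRPL17, MRPL51 and MRPS34, described above against control. MRPL23, in probe PH_hs_0027046 (its second probe is given below), had 8.84, 8.53, 8.73 and 8.31 with elaidic acid, against 9.98, 9.96, 10.24 and 10.04 with stearic acid. Its log2 difference was -1.46 ± 0.24 (limma adjusted p = 0.038), and -1.27 ± 0.29 within range B (limma adjusted p = 0.33). MRPL17 had 8.20, 7.73, 8.0 and 8.06 against 9.16, 8.83, 9.30 and 9.03 (log2 difference -1.08 ± 0.22, and -0.98 ± 0.26 within range B). MRPL51 had 9.84, 9.52, 9.88 and 9.48 against 10.81, 10.36, 10.70 and 10.54 (log2 difference -0.92 ± 0.19, and -0.74 ± 0.21 within range B). MRPS34 had 9.15, 9.28, 9.26 and 9.26 against 10.28, 10.17, 10.49 and 10.06 (log2 difference -1.01 ± 0.20, and -1.04 ± 0.25 within range B). The adjusted p of the last 3 was 0.047 in limma. No elaidic acid sample of either range reached the lowest stearic acid sample in any of these 4 probes. Leaving out any 1 of the 8 samples gave 0 or 1 member calls, and leaving out oleic acid replicate 4 and control replicate 1, which enter through the shared variance, gave 10 where 1.32% of all probes were called. Among probes that were higher with elaidic acid, those of smallest p were MRPS11, at a log2 difference of 0.80 ± 0.36 in a dim probe, MRPL32 at 1.20 and MRPL4 at 0.47, and none passed.

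Between oleic acid and stearic acid 2 members rose and 47 fell without the block, so 49 of 81 were called where 39.5% of all probes were, 21% as higher and 18.4% as lower. The median member log2 difference was -1.05, against 0.21 over all probes. In the large subunit 1 probe rose and 30 fell, and in the small subunit 1 rose and 17 fell. With the block limma called 0 members and 0% of all probes. The blocked median was -0.51, against -0.0028 over all probes, and 18 members passed an unadjusted p of 0.05, 17 of them lower, where 6.6% of all probes passed and 3.5% passed as lower. Stearic acid enters this contrast and the contrast with control with the same 4 samples.

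MRPL44 had log2 levels of 5.60, 5.13, 4.93 and 4.25 with oleic acid, against 7.49, 6.92, 7.47 and 7.18 with stearic acid (probe PH_hs_0035690), a log2 difference of -2.29 ± 0.30 (limma adjusted p = 8.0e-04). The groups lay more than 1 log2 unit apart. MRPL51, MRPL23 (probe PH_hs_0027046), MRPL36 and MRPL12 fell, with log2 differences of -1.33, -1.72, -2.52 and -1.47. So did MRPL13, which has a bacterial relative in the large subunit, with -1.40. A probe of MRPS34 (PH_hs_0009505) fell, with -2.0. MRPS36 fell by 1.86 in probe PH_hs_0035918, while its probe PH_hs_0024775 had log2 levels of 7.44 to 8.02 with oleic acid and 7.63 to 7.88 with stearic acid. RefSeq now names MRPS36 KGD4, and its protein is known as a part of the alpha-ketoglutarate dehydrogenase complex, not of the ribosome. The 2 that rose were MRPL28, by 0.73 ± 0.24, and MRPS28, by 1.14 ± 0.44. Their sign turned with the block, to -0.02 and -0.51.

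Between elaidic acid and control 1 member rose and none fell without the block, where 0.323% of all probes were called and 0.305% were called as higher. The median member log2 difference was 0.42, against -0.10 over all probes, and 60 of 81 members were higher, with 22 (27.2%) past an unadjusted p of 0.05, where 14.3% of all probes passed. With array weights limma called 32 members and 20.3% of all probes. The medians of the 2 subunits were alike, 0.44 for the large and 0.41 for the small. Within range A the median was 0.21, against 0.02 over all probes. limma called 0 members there and 0.0392% of all probes. An unadjusted p under 0.05 was reached by 11 members, 7 of them higher and 4 lower, where 6.53% of all probes reached it.

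The 1 member that rose was a dim probe of MRPS33, a small-subunit protein found in mitochondria only. Probe PH_hs_0031368 had log2 levels of 5.15, 4.14, 4.47 and 3.80 with elaidic acid, against 1.96, 3.49, 1.55 and 2.69 in control. The log2 difference was 1.97 ± 0.38 (limma adjusted p = 0.040), or 1.55 ± 0.44 within range A (limma adjusted p = 0.36). The groups did not overlap, but its intensities over all samples ran from 2.32 to 52.7 only, and leaving out a single sample ended the call in 6 of 8 cases. The other MRPS33 probe, PH_hs_0004747, had 9.82 and 9.42 in range B and 7.71 and 7.61 in range A with elaidic acid, against 5.94, 8.20, 7.54 and 8.55 in control. There the range A samples lay inside the control values. MRPL36 and both MRPL12 probes had the next smallest p, at log2 differences of 1.54, 1.01 and 0.81, and did not pass (limma adjusted p = 0.11, 0.14 and 0.16). MRPL36 and MRPL12 were singled out in this comparison after their values had been seen. Among probes that were lower with elaidic acid, those of smallest p were MRPS9 at -0.73, MRPL30 at -0.79 in a dim probe and MRPL52 at -0.45, which did not pass (limma adjusted p = 0.22, 0.32 and 0.44).

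Between elaidic acid and oleic acid, the trans and the cis form, limma called 0 members, where 0.318% of all probes were called. At an unadjusted p under 0.05 there were 25 (23 higher, 2 lower), where 18.9% of all probes passed. With array weights limma called 43 members and 39% of all probes. The median member log2 difference was 0.41, against -0.13 over all probes, and 60 of 81 were higher. Within range A the median was 0.18, against 0.01, with 0 members and 0.0218% of all probes called, and 4 members passed the unadjusted threshold, where 5.85% of all probes did. The smallest p belonged to MRPS17, which binds the ribosomal RNA of the small subunit, with 7.86, 6.91, 7.83 and 6.82 with elaidic acid, against 6.64, 6.35, 6.16 and 5.26 with oleic acid. Its log2 difference was 1.25 (95% interval 0.59 to 1.92, limma adjusted p = 0.11), and 0.76 within range A. MRPL13 and MRPL36 had log2 differences of 0.88 (0.40 to 1.36) and 1.42 (0.60 to 2.24), and did not pass. On the low side stood 2 probes of MRPS11, at -0.58 and -0.71, and MRPL28 at -0.50. The remaining MRPS11 probe, PH_hs_0006112, went the other way, with 0.26, or 0.80 within range A, and did not pass. For 27 of the 81 members the 95% interval of this difference lay within 1 log2 unit of 0 on either side, so for the other 54 a 2-fold difference between the isomers was not excluded by its interval.

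Between oleic acid and control, which share range A, limma called 0 members and 0% of all probes. The median member log2 difference was -0.02, against 0.01 over all probes, and 40 of 81 members were higher. At an unadjusted p under 0.05 there were 3 members (3.70%), where 2.62% of all probes passed. In the blocked fit limma again called 0 members and 0% of all probes, with 3 members at that unadjusted threshold and 3.31% of all probes. The 3 were MRPS33, at a log2 difference of 1.47 in the dim probe, MRPS9 at -0.54 and MRPS7, of the small subunit, at -1.30 in its dimmer probe. The brighter probes of MRPS33 and MRPS7 had -0.04 and 0.24. MRPL10, which anchors the stalk, and MRPL17 had 0.42 each, and MRPS17 had -0.55. None came near the adjusted threshold. For 48 of the 81 members the 95% interval lay within 1 log2 unit of 0, and the median interval reached 0.72 log2 units to either side.

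**Figure D4:**
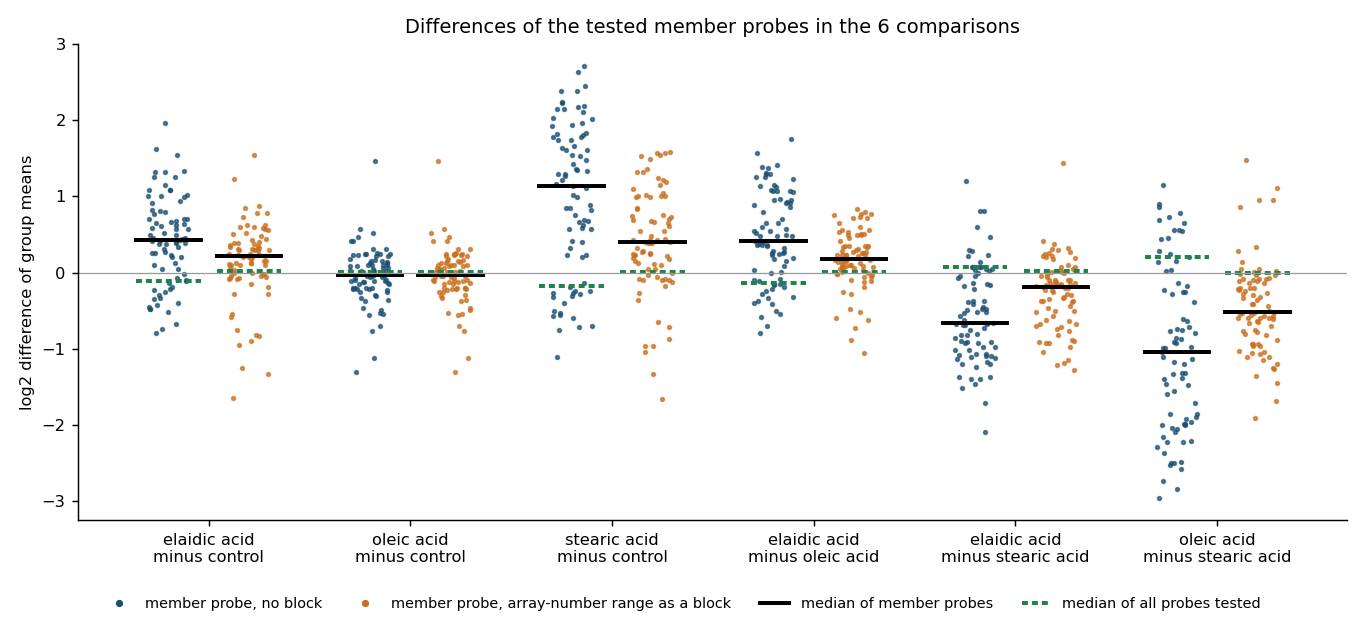
Log2 difference of each of the 81 tested member probes in the 6 comparisons (first group minus second), without the block (blue points) and with array-number range as a block (orange points), with solid bars for the member median and dotted bars for the median of all 22939 probes tested. The member medians of stearic acid minus control are 1.14 without and 0.40 with the block, and those of oleic acid minus control are -0.02 in both.

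Other well-studied members are given by level. MRPS18A and MRPS18C are 2 of the 3 human copies of a bacterial small-subunit protein, and MRPS18A is known to sit in the large subunit despite its name. MRPS18A had log2 levels of 11.45, 11.46, 11.46 and 11.28 with elaidic acid, 11.09, 10.94, 10.79 and 10.53 with oleic acid, 11.98, 11.82, 11.44 and 11.11 with stearic acid and 10.34, 11.32, 10.65 and 10.65 in control. It was steady across the elaidic acid samples of both ranges. MRPS18C averaged 8.41 ± 0.36, 8.06 ± 0.43, 9.61 ± 0.23 and 8.0 ± 0.56 in the same order (SD, n = 4 each), with the stearic acid samples highest. MRPL11, at the base of the stalk, averaged 9.92 ± 0.12, 9.56 ± 0.25, 9.78 ± 0.40 and 9.55 ± 0.31, and all groups overlapped.

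MRPS12, of the decoding centre, averaged 6.62 ± 0.29, 6.34 ± 0.40, 7.79 ± 0.16 and 6.25 ± 0.39 in its brighter probe. MRPS5, near the entry of the message, had 12.31 and 12.43 in range B and 11.32 and 10.81 in range A with elaidic acid, 9.44 to 11.45 with oleic acid, 12.001 to 12.53 with stearic acid and 9.31 to 11.88 in control. MRPS22, a mitochondria-only protein in which mutations cause a disease of oxidative phosphorylation, had 11.38 and 11.35 in range B and 9.22 and 8.97 in range A with elaidic acid. It had 7.88 to 10.06 with oleic acid, 10.97 to 11.37 with stearic acid and 8.27 to 11.22 in control. In MRPS5 and MRPS22 the lowest samples were oleic acid replicate 4 and control replicate 1, and the brightest control sample reached the level of range B in MRPS22.

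The brightest probes of each subunit were those of MRPL4, MRPL27 and MRPL37, with median intensities of 23019, 7062 and 5774, and of MRPS15, MRPS24 and MRPS5, with 4735, 3562 and 2430. The dimmest were those of MRPL32, MRPL16 and MRPL9, with 12.4, 12.7 and 17.6, and of MRPS2, MRPS33 and MRPS11, with 18.0, 13.6 and 19.3. Intensity depends on the probe, so these values say where signal was high or low and do not rank the genes by abundance. Among the brighter 40 members the median log2 difference between stearic acid and control was 1.12, and among the dimmer 41 it was 1.36, without the block.

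**Figure D5:**
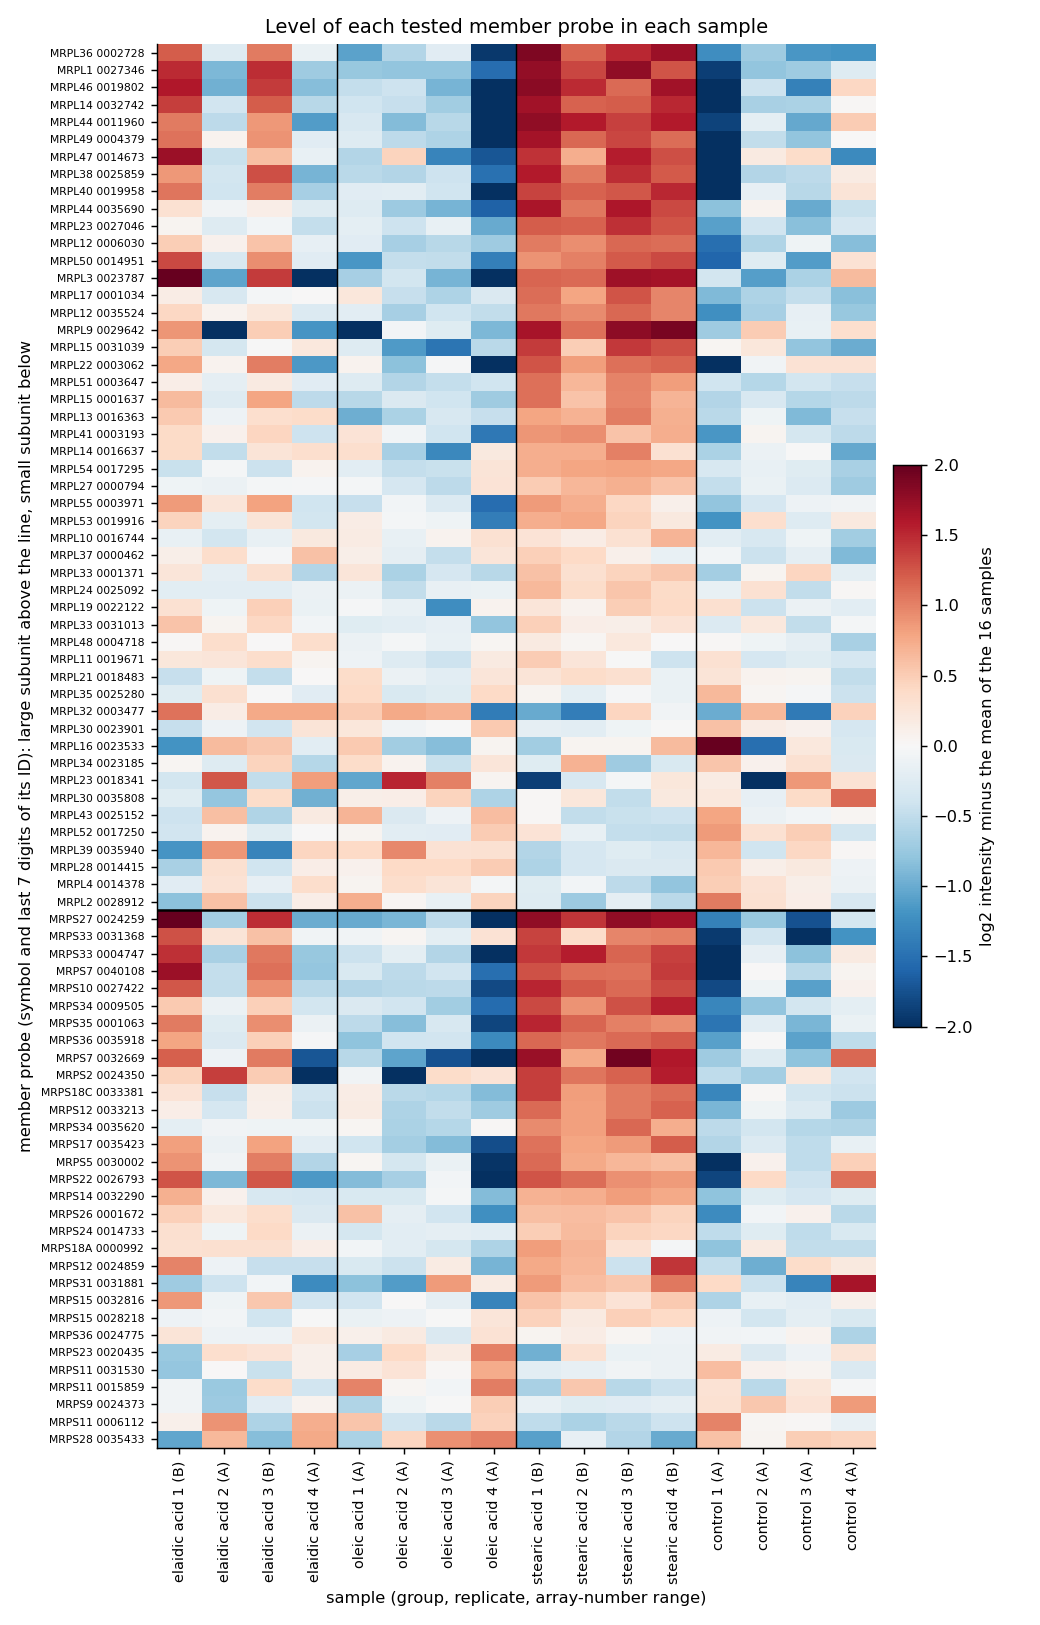
Level of each of the 81 tested member probes (rows, large subunit above the line, small subunit below, ordered by the difference between stearic acid and control) in each sample (columns), as log2 intensity minus the mean of that probe over the 16 samples, limited to 2 either way. The stearic acid columns and elaidic acid replicates 1 and 3, all of range B, share the red upper rows of each subunit, and oleic acid replicate 4 and control replicate 1 hold the deepest blue.

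Several probes of 1 gene did not always move together. Over the 16 samples, the 16 probe pairs of 14 genes had a median Pearson r of 0.55. The pair of MRPL12 had 0.99 and that of MRPL44 had 0.90, while the pairs of MRPL30 and MRPL23 had -0.33 and -0.31. The second MRPL23 probe, PH_hs_0018341, was dim, with a mean log2 level of 4.39 against 8.78. Its log2 difference was 0.81 between elaidic acid and stearic acid and 0.89 between oleic acid and stearic acid, where the brighter probe fell. Between stearic acid and control it was -0.32, where the brighter probe rose. In this last contrast 1 of 16 pairs had opposite signs, and in oleic acid against control 11 had. Which transcripts each probe reads is not given in the sources used here.

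Member probes varied together across the 16 samples, with a median Pearson r of 0.33 over all pairs of the 81 probes, against 0.01 over all pairs of tested probes. The respiratory chain subunits had 0.67 and the cytosolic ribosomal proteins 0.45. Once group and array-number range were removed from each probe, these medians were 0.02 for the members, 0.29 for the respiratory chain and 0.07 for cytosolic ribosomal proteins. All pairs share the samples and their depth, so these values are descriptions.

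MRPL46 and MRPS11 start on opposite strands of chromosome 15, with 320 bases between their starts, and were looked at for that reason after values had been seen. MRPL46 had log2 levels of 9.71 and 9.50 in range B and 7.14 and 7.25 in range A with elaidic acid, while the brightest MRPS11 probe had 9.34 and 9.66 in range B and 10.11 and 10.21 in range A. Their log2 differences between ranges were 2.41 and -0.66, and neither passed (limma adjusted p = 0.051 and 0.18). The other 2 MRPS11 probes had -1.07 and 0.70, so the probes of MRPS11 differed in sign. Between stearic acid and control MRPL46 had a log2 difference of 2.38 and this MRPS11 probe of -0.26.

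Related gene lists are given for comparison. The 78 probes of respiratory chain subunits had a median log2 difference of 0.56 between elaidic acid and control, -0.02 between oleic acid and control and 1.48 between stearic acid and control, with 0, 0 and 55 called. Of all probes, 0.323%, 0% and 29.8% were called in these contrasts. With the block the medians of this list were 0.16, -0.02 and 0.47. None of its probes was then called, where 0.0392%, 0% and 0% of all probes were. The 44 probes of cytosolic ribosomal proteins had 0.67, -0.05 and 1.19, with 0, 0 and 30 called, and 0.39, -0.05 and 0.59 with the block. The members thus lay in the same direction as 2 other lists, and whether they differ from those lists was not tested.

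Mitoribosomal proteins with other symbols had 4 probes tested, and 3 rose between stearic acid and control, GADD45GIP1 by 2.45, DAP3 by 1.68 and ICT1 by 1.20 log2 units. With the block these were 0.65, 0.01 and 0.32, and none passed. Between stearic acid and control 29.8% of all probes were called without the block, 15% as higher and 14.8% as lower. Of 9 probes of translation factors, 1 rose in that contrast, TUFM, the factor that brings tRNA to the ribosome, by 1.47 (0.58 with the block), and 2 fell, MTIF2 and MRRF, by 0.95 and 0.67. Of 20 probes of assembly and ribosomal RNA factors 8 rose and none fell, with NGRN at 3.70, DDX28 at 1.28 and TFB2M at 2.09 log2 units, which the block took to 1.25, 0.70 and 0.18. Of 11 probes of mitochondrial transcription and its regulators 3 rose, C14orf156 by 3.46, LRPPRC by 1.85 and a TFAM probe by 1.27, with 0.89, -0.11 and 0.83 under the block. Between elaidic acid and control TUFM had a log2 difference of 0.38 and POLRMT, the mitochondrial RNA polymerase, one of 0.32. The 2 probes of TFAM, which packs mitochondrial DNA, had 0.87 and 0.25 in that contrast, and none of these passed. No probe of these 4 lists was called between elaidic acid and control, where 0.323% of all probes were.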

How the data were processed

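RNA of HepG2 cells was measured on 1-colour arrays of 30968 probes, with 4 samples in each of 4 groups. The deposited values are background-subtracted linear intensities, 1 per probe and sample. Per the labels, amplified RNA carried Cy5, the arrays gave GenePix results, and each RNA had 2 technical replicates; how these were combined is not given in the sources used here. No normalisation between samples was seen in the values. Gene symbols came from the platform's annotation, which names 17397 of the probes.

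The 8029 probes (25.9%) with any value at or below 0 were left out. The other 22939 were taken to log2, quantile normalised and fitted with limma 3.58.1 (lmFit and eBayes, R 4.3.3) over all 16 samples, with 2-sided tests and Benjamini-Hochberg adjustment over all of them at 0.05. A second fit added array-number range as a block. In each contrast up to 8 member probes past the threshold were named in each direction (5 for the range), or the 3 of smallest p where none passed, with a set of members described by level and the 3 brightest and dimmest of each subunit. From each other list up to 3 probes past the threshold were named. The members and the lists were chosen with earlier results of these data known. Subunits were counted by symbol. Promoters came from RefSeq (GRCh38.p14), and probe positions were not used here.

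Alternatives covered normalisation, filters, offsets, array weights, blocks, 1 probe per gene and samples left out. The fit was tested on simulated data, 20 sets with 200 of 22939 probes changed between elaidic acid and control. It recovered 19.6% of 2-fold and 68.3% of 4-fold changes without the block, and 5.15% and 49.9% with it. The simulated data held no difference between ranges, unlike the measured data, so the recovery without the block may be too high. Other contrasts were not simulated. With the block the SE of MRPL23 (PH_hs_0027046) was 0.29 between elaidic acid and control and 0.40 between stearic acid and control.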

Additional observations from a re-analysis of the deposited data

Results flagged for a closer look

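In 8 of 132 groups of 4 values looked at, 1 sample stood far from the other 3 by Dixon's test at the 95% level, and chance alone marks about 5% of such groups. In oleic acid replicate 4, one of the dimmest samples, MRPL1 had a log2 level of 7.56, below the 8.28 to 8.32 of the other oleic acid samples, and MRPL32 had 1.76, below 3.67 to 3.91. In control replicate 1, the other dimmest sample, the mean of the large subunit was 7.65, below 7.92 to 7.97, and a dim probe of MRPS11 had 5.27, above 4.11 to 4.31. MRPL36 had 5.77 in control replicate 2, above 5.24 to 5.31. MRPL39 had 8.90 in oleic acid replicate 2, above 8.24 to 8.34. MRPL28 had 6.89 in stearic acid replicate 1, below 7.17 to 7.22. MRPS34 had 9.15 in elaidic acid replicate 1, below 9.26 to 9.28, a gap of little size in a tight group.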

How the results depend on the processing

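Of 1001 alternative values for 47 named probe differences, 803 kept direction and side of the threshold, 181 were no longer past it, 9 came past it and 8 changed sign. Between oleic acid and stearic acid the sign turned for MRPL28 with the range block (-0.0192), also on centred values (-0.0049) and without the dimmest 50% of probes (-0.0192), and for MRPS28 with the block (-0.51), also without normalisation (-0.50), on centred values (-0.52) and without the dimmest 50% (-0.51). MRPL4 between elaidic acid and stearic acid turned to -0.00085 without normalisation. With the range block, alone or joined to no normalisation, centring on sample medians or leaving out the dimmest 50%, limma called 0 member probes between elaidic acid and control, stearic acid and control, elaidic acid and stearic acid, and oleic acid and stearic acid. In that order of 4 settings, the member medians were 0.40, 0.35, 0.48 and 0.43 between stearic acid and control, -0.19, -0.28, -0.26 and -0.19 between elaidic acid and stearic acid, and -0.51, -0.47, -0.49 and -0.54 between oleic acid and stearic acid; between elaidic acid and control the block without normalisation gave 0.031.

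Between elaidic acid and control the count was 0 without normalisation, on centred values, with cyclic loess, with no filter (values under 1 set to 1), with an offset of 50, without the dimmest 50%, with 1 probe per gene, with only the 2 groups fitted and without the 2 dimmest samples, and 32 with array weights, where 20.3% of all probes were called. For elaidic acid against oleic acid it was 1 with the offset, 2 without the dimmest 50% and 43 with array weights, where 0.675%, 1.57% and 39% of all probes were called. For elaidic acid against stearic acid it was 0 without normalisation, with no filter and with only the 2 groups fitted, 13 with the offset, 8 without the dimmest 50%, 7 with an intensity trend, 15 with array weights, where the median was -0.33, and 10 without the 2 dimmest samples, where in these last 5 settings 1.88%, 2.56%, 0.972%, 4.49% and 1.32% of all probes were called. Between ranges within elaidic acid it was 0 without normalisation and 15 with the offset, where 7.73% of all probes were called with the offset. The counts of 0 in this paragraph are given without the share of all probes called. They therefore do not show a loss particular to the members.

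Without normalisation the member medians were 1.82 between stearic acid and control, 0.73 between elaidic acid and oleic acid, -1.07 between elaidic acid and stearic acid, -1.81 between oleic acid and stearic acid and 1.24 between ranges, while those of all probes were 0.26, 0.12, -0.28, -0.39 and 0.53. Centring gave 1.32 between stearic acid and control and -1.21 between oleic acid and stearic acid, and the offset gave 0.71, -0.73 and, between ranges, 0.26. Without the 2 dimmest samples, control replicate 1 and oleic acid replicate 4, stearic acid minus control was 0.92.

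Leaving out 1 sample at a time gave 0 to 1 calls and medians of 0.35 to 0.53 between elaidic acid and control, 33 (without control replicate 1) to 43 calls and 0.92 to 1.22 between stearic acid and control, 0 calls and 0.36 to 0.52 between elaidic acid and oleic acid, 0 to 1 calls and -0.67 to -0.48 between elaidic acid and stearic acid, 36 (without oleic acid replicate 4) to 50 calls and -1.16 to -0.97 between oleic acid and stearic acid, and 0 calls and -0.11 to 0.11 between oleic acid and control. Replicate numbers were not taken to pair the samples, since in no comparison did all 4 same-numbered pairs correlate over 0.1: 0 of 4 did between elaidic acid and control (-0.46 to -0.11) and between oleic acid and control (-0.39 to 0.08), 1 between stearic acid and control (-0.17 to 0.18) and between oleic acid and stearic acid (-0.16 to 0.16), 2 between elaidic acid and stearic acid (-0.06 to 0.16) and 3 between elaidic acid and oleic acid (-0.19 to 0.36). With a replicate block limma called 0 member probes between elaidic acid and control, 39 between stearic acid and control, 0 between elaidic acid and oleic acid, 0 between elaidic acid and stearic acid, 44 between oleic acid and stearic acid and 0 between oleic acid and control. In the main fit 29.8% of all probes were called between stearic acid and control and 39.5% between oleic acid and stearic acid. The counts of 0 in the alternative settings, those with 1 sample left out and those with a replicate block are given in this section without such a share. They therefore do not show anything particular to the members. The cause of the moves between settings was not tested. The settings that join the range block to another choice, and the one without the 2 dimmest samples, were chosen after seeing the data. Probes near background limit what dim members such as MRPS33 and MRPL32 can show.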
